A study of Arabidopsis thaliana with 2 samples.

Results

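Mitochondrial genome transcripts are here the transcript models that the deposited set places on the sequence named Mt, the Arabidopsis thaliana mitochondrial genome in the TAIR10 build. They number 175 of 52608 in the whole set, in 197 exon lines and 139 loci, and were chosen by that sequence name alone. The RNA came from siliques, the seed pods, of Col-0 plants carrying the ago3-3 allele of Argonaute 3, a gene for a small RNA binding protein, collected 1 to 5 days after pollination from long-day plants in soil. The 2 libraries with labels (n = 2, both ago3-3) were made from total RNA after rRNA depletion with a kit that keeps the strand, and the design text names wild type as well. All transcripts were merged into 1 set with no value per library, so no level, no replicate error and no difference between genotypes could be computed, and the depth is unknown. A transcript could stem from any of the merged libraries.

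Plant mitochondria keep a small set of genes for subunits of the respiratory complexes, for cytochrome c maturation, for part of their ribosome and for some of their tRNAs. These genes lie scattered in long stretches of sequence with no known gene, and many are transcribed into long precursors that hold neighbouring genes and are later cut, often at tRNAs or tRNA-like structures. Several messages of complex I, among them nad1, nad2 and nad5, are pieced together by trans-splicing from precursors made at separate places in the genome, so 1 protein can have several gene entries here.

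Of the 175 transcripts, 145 were the annotated genes, which such a merge carries over whether or not reads covered them. The other 30 bore an assembler's name and are called assembled here. Among these, 25 departed from the annotation, which is 14.3% of all mitochondrial transcripts (exact Clopper-Pearson 95% interval 9.46 to 20.4%, counting error only). By the relation codes in the file, 10 overlapped exons of a gene on the same strand without sharing a splice junction (code o), 1 shared a junction (code j), 8 overlapped a gene on the opposite strand alone (code x) and 6 lay between genes (code u). The other 5 carried the code for a match (=). In 4 of them the exons were identical to the annotated gene, and the last one matched the intron of NAD5 with other ends. The chloroplast genome, by contrast, had 133 transcripts, all of them annotated genes, and 0 assembled ones. That 0 was known when these transcripts were chosen, so the contrast is a description and carries no interval.

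**Figure D1:**
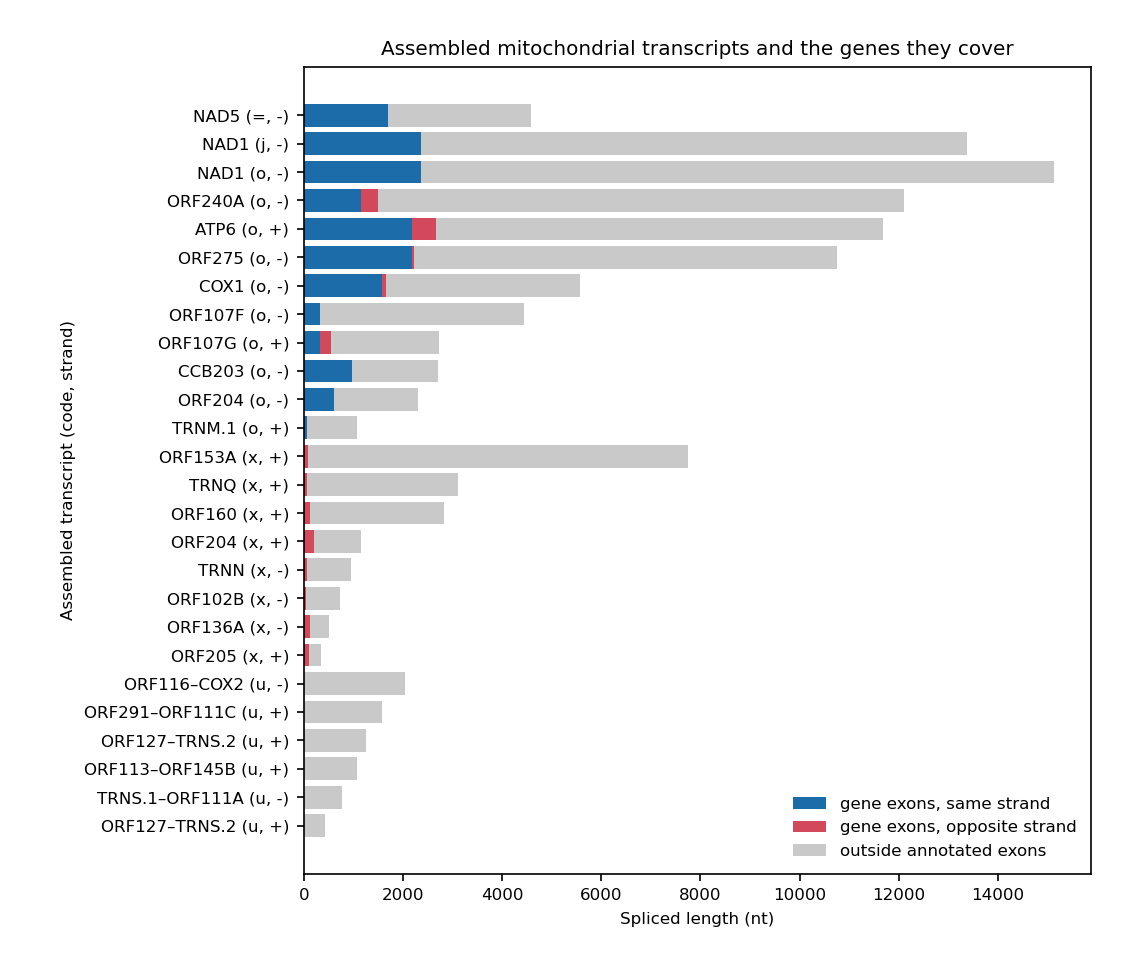
Spliced length in nt of the 26 assembled mitochondrial transcripts whose exons differ from an annotated gene, split into exons of genes on the same strand (blue), exons of genes on the opposite strand (red) and sequence outside annotated exons (grey). Labels give the gene or the flanking genes, the relation code and the strand, and most of the length of every bar is grey.

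These transcripts were long and lay mostly outside annotated exons. Annotated exons took up 74735 nt, or 20.4%, of the 366649 nt between the first and the last position on Mt, while the 25 new transcripts covered 91893 nt, or 25.1%. Of their summed spliced length, 84.9% lay outside annotated exons of either strand. That share was 81.1% for the same-strand overlaps, 82.3% for the junction-sharing isoform and 95.4% for the antisense transcripts. Annotated introns count as outside here, and so do untranslated parts where an entry holds the reading frame alone. The same-strand overlaps had a median of 5009 nt (1069 to 15127 nt), the antisense transcripts 1058.5 nt (347 to 7740 nt) and the intergenic ones 1162.5 nt (438 to 2045 nt). Nuclear transcripts of the same codes had medians of 1848.5, 776 and 661 nt. On Mt, 9 of 10 same-strand overlaps and all 8 antisense and 6 intergenic transcripts had a single exon. In the nucleus, single-exon transcripts made up 71 of 644, 92 of 144 and 191 of 335 of these codes. The new transcripts were divided between the strands, with 12 on the plus and 13 on the minus strand, and only at ORF204 did both strands of the same stretch carry one, over 1156 nt.

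Of the 145 annotated genes, 25 had a new transcript on their own strand, a background of 17.2% (11.5 to 24.4%), and 24 of these were covered whole. On either strand the count was 39, or 26.9%. Another 14 had a new transcript on the opposite strand alone, and 106 had neither. The counts by class below are to be read against these shares. The exact interval of every class held 17.2%, but for small classes it could hardly do otherwise. That of the 1 complex III gene, with no new transcript, was 0 to 97.5%. The classes are also part of the background, and the genes are not independent, since 20 share a transcript with another gene.

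**Figure D2:**
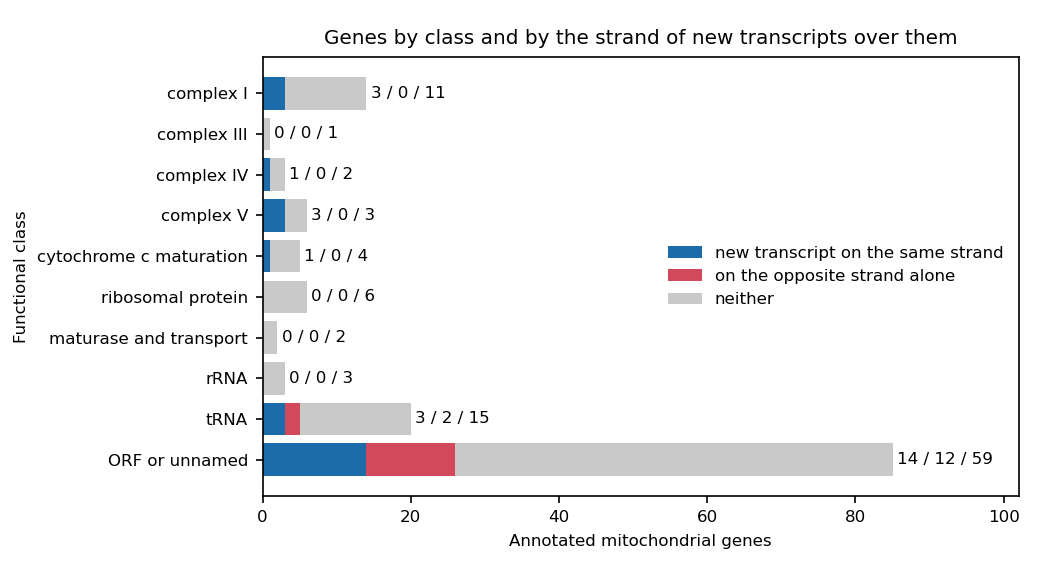
Number of annotated mitochondrial genes in each functional class with a new transcript on their own strand (blue), on the opposite strand alone (red) or with neither (grey), with the 3 counts printed beside each bar. Open reading frames and unnamed genes make up 85 of the 145 genes, and the ribosomal protein, rRNA and complex III classes have no blue or red part.

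The respiratory chain genes were covered in part. Complex I, the NADH dehydrogenase at the entry of the chain, had 3 of 14 gene entries under a new transcript, namely NAD4L, NAD5B and the middle NAD1 entry (ATMG01120). COX1, the catalytic core of cytochrome c oxidase, was the only one of 3 complex IV genes. Complex V, the ATP synthase, had 3 of 6: ATP6 and ATP6-2, both for the membrane subunit a, and ORF25, which the RefSeq annotation calls atp4 and which encodes a subunit of the stator. The 1 complex III gene, COB for cytochrome b, had none. Of 5 genes for cytochrome c maturation, which attaches haem to cytochromes of the c type, CCB203 (ccmFN2 in RefSeq) had one. None of the 6 genes with a ribosomal protein symbol, the 3 rRNA genes or the pair formed by the maturase MATR and the transport gene ORFX had a new transcript on either strand. The unnamed ATMG00090 lies between RPL16 and TRNK.1, where RefSeq has rps3, a ribosomal protein gene. It is counted below with the unnamed genes and had no new transcript on either strand. Because rRNA was removed from the RNA, nothing is read from the rRNA genes. Of 20 tRNA genes, 3 were covered on their own strand (TRNM.1, TRNS.3 and TRNK.2) and 2 on the opposite strand (TRNN and TRNQ). Of 85 open reading frames and unnamed genes, 14 were covered on their own strand and 12 on the opposite strand alone. Frames are mostly named by their number of codons: with ORF25 counted and the unnamed ATMG00090 left out, 81 of 85 were as long as that number plus a stop codon gives.

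Transcripts with more than 1 gene on their strand came from 5 places and held 20 genes, beside the NAD5 transcript of matching code. Over ATP6, a single exon of 11687 nt on the plus strand (107051 to 118737) held ATP6 (ATMG00410), the serine tRNA gene TRNS.3 45 nt further on, and then ORF106A and ORF152A. It began 4536 nt before ATP6, ended 1983 nt after ORF152A and ran over all 474 nt of ORF157 on the other strand.

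On the minus strand, a single exon of 10748 nt (183400 to 194147) held ORF275, NAD5B, ORF149, NAD4L and ORF25 in the direction of transcription. NAD5B (ATMG00665, 190740 to 190761) is an exon of only 22 nt, a piece of nad5 that trans-splicing joins to the rest of the message. NAD4L (ATMG00650, 188929 to 189231) encodes a small membrane subunit of complex I, and ORF25 (ATMG00640, 188084 to 188662) follows it after 266 nt. The transcript reached 2265 nt upstream of ORF275 and 4684 nt downstream of ORF25, where its last 44 nt lay opposite ORF110B. In the RefSeq mitochondrial annotation, too, nad5 part 2, nad4L and atp4 follow each other with no other named gene between them.

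The other minus-strand exon of this size (202089 to 214187, 12099 nt) held ORF120, the lysine tRNA gene TRNK.2 and ORF240A. Of the 3 same-strand genes, TRNK.2 and ORF240A lie 29 nt apart, and 3140 nt separate TRNK.2 from ORF120. The transcript began 6272 nt upstream of ORF120, and it covered all 324 nt of ORF107D and 9 nt of ORF122C on the opposite strand. A shorter exon (255862 to 258575, 2714 nt) held ORF117 and, 568 nt downstream, CCB203 (ATMG00960), both whole.

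**Figure D3:**
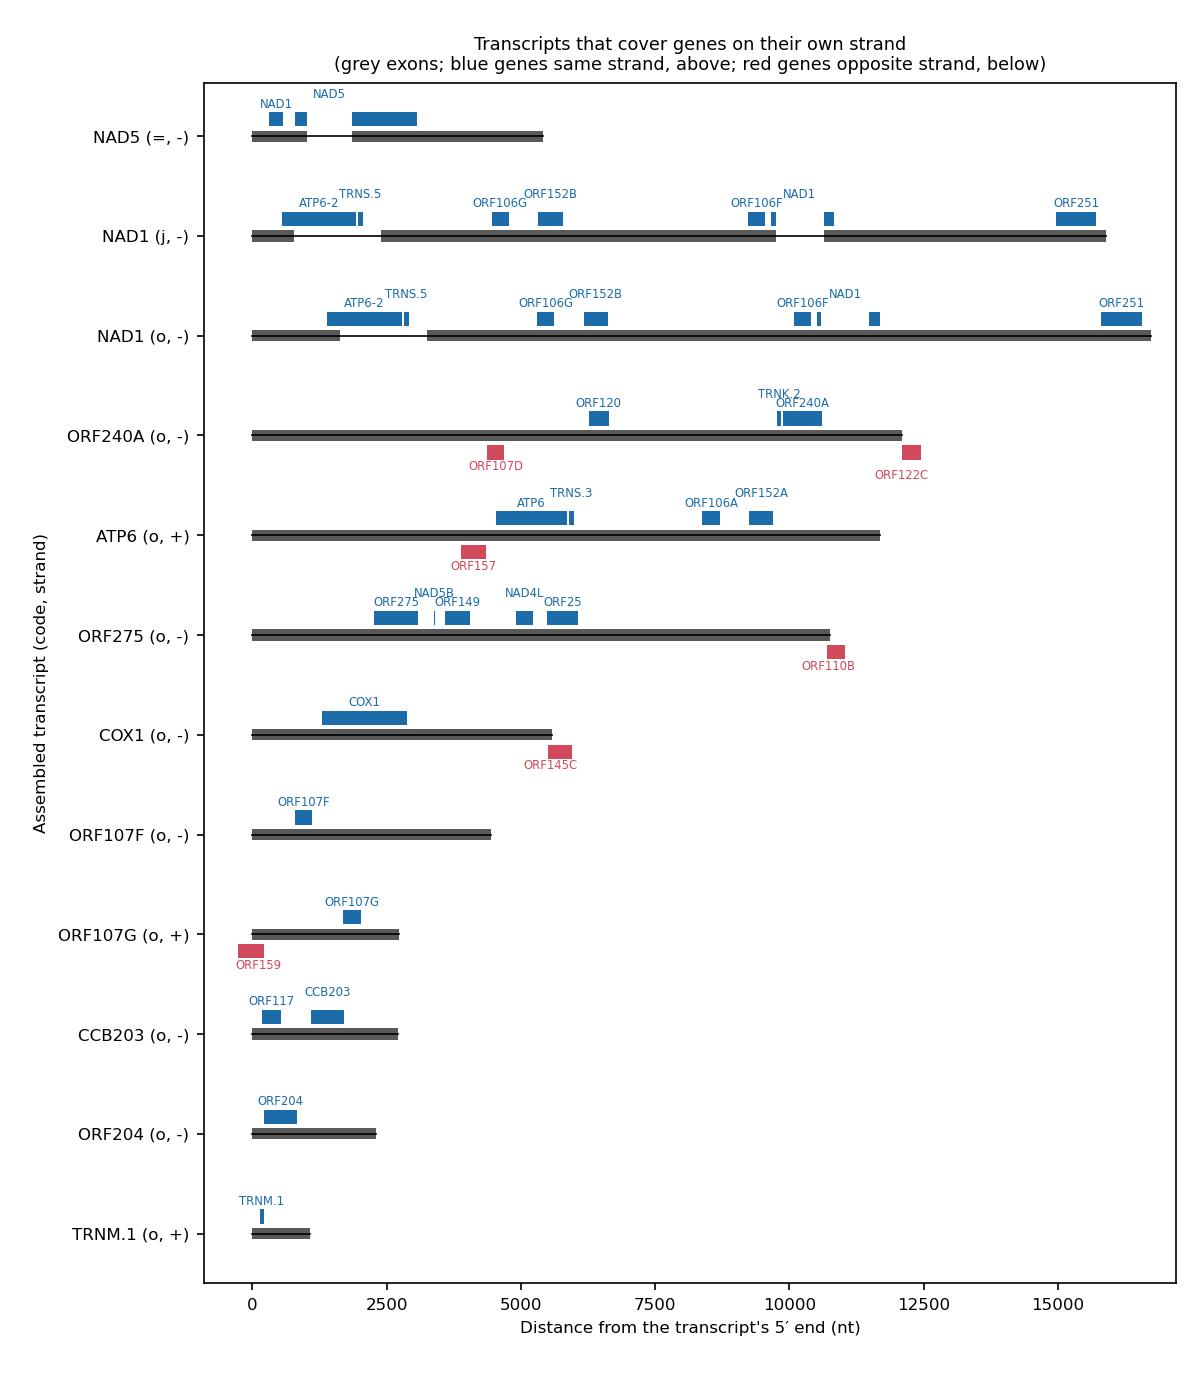
Maps of the 12 assembled transcripts that cover a gene on their own strand and differ from it, drawn by distance in nt from the 5′ end of each transcript. Grey bars are exons, blue bars above are annotated exons on the same strand, and red bars below are annotated exons on the opposite strand; the transcripts over NAD1, ORF240A, ATP6 and ORF275 hold 3 to 6 genes each.

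The longest pair shared the locus of NAD1 (ATMG01120) on the minus strand. The junction-sharing isoform ran from 298750 down to 282863 in 3 exons and 13384 nt, and its partner from 299599 to the same 3′ end in 2 exons and 15127 nt. Both overlapped ATP6-2, ORF106G, ORF152B, ORF106F, NAD1 and ORF251, 6 genes on their strand, and both ended 171 nt past ORF251. Of ATP6-2 (ATMG01170) only 239 of 1385 nt were exon. The intron of NAD1 at 288109 to 289002, 894 nt, was spliced out in the first and kept as exon in the second. A second intron of 1610 nt (296356 to 297965) was in both and is not in the annotation. It held the serine tRNA gene TRNS.5 whole and most of ATP6-2, 1243 nt of annotated exons in all.

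The NAD5 transcript of matching code (138369 to 143787, minus strand, 4590 nt in 2 exons) also ran across genes. It held NAD5 (ATMG00513) whole with its intron of 829 nt (141940 to 142768) spliced out, and went on for 2355 nt past that gene. At the other end it covered 259 nt of the NAD1 entry ATMG00516, which lies 220 nt upstream of NAD5, and began 310 nt inside the intron of that entry. The match code rests on the intron alone, and the transcript joined exons of a pair of complex I entries.

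With this transcript, 15 distinct pairs of neighbouring same-strand genes were joined, of 90 such pairs on Mt. The joined pairs were 29 to 4127 nt apart with a median of 544 nt. The 75 pairs that were not joined had a median of 677 nt (-4024 to 12442 nt, negative where genes overlap). Among pairs less than 1000 nt apart, 11 were joined and 47 were not, and the 47 include overlapping or nested genes. The distances of joined and unjoined pairs overlapped. In the chloroplast, where no pair was joined, 97 same-strand neighbours lay a median of 188 nt apart and annotated exons took up 58.8% of the span.

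Introns were few in the assembled set. The annotation has 18 introns in 12 mitochondrial genes, 829 to 3512 nt long with a median of 1407.5 nt. Of these, 2 were spliced in an assembled transcript (NAD5 and NAD1, above), and 1 of the 2 was also covered unspliced. The other 16, in NAD7, NAD4, NAD2, RPL2, COX2, CCB452 and the other genes, were neither spliced out nor covered over their whole length. NAD7 and NAD4, both subunits of complex I, have 4 and 3 introns, and no assembled transcript passed over either gene. The 23 intron-bearing chloroplast genes likewise had none.

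The surroundings of ATP6 and ATP6-2 were laid out alike downstream of the gene. Counted from the 3′ end of either gene, the serine tRNA ended at 132 nt, ORF106A or ORF106G lay at 2524 to 2844 nt and ORF152A or ORF152B at 3389 to 3847 nt. The RefSeq mitochondrial sequence is another build whose positions were not those of the file, so it was used through distances from atp6 alone. There, the serine tRNA also lies at 46 to 132 nt past both atp6 copies, and the sequence around them was identical over 6590 of 6590 nt, from 760 nt before the 3′ end of atp6 to 5829 nt after it. The assembled transcript over ATP6 ended 5830 nt after that gene, within 1 nt of where the shared stretch ends. The transcripts over ATP6-2 ran on to 13957 nt, through NAD1 to ORF251, and their unannotated intron spanned the start of the shared stretch. Their first exon ended 1146 nt before the 3′ end of ATP6-2 and the next began 465 nt after it, while the transcript over ATP6 was exon throughout. In RefSeq, nad1 part 2 instead lies past atp6 copy 1, which follows a tyrosine tRNA as ATP6 does here. The RefSeq atp6 copy 2 lies between its serine tRNA and atp9. A read from within the identical stretch matches both places, and the part of this in the assembly was not tested.

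**Figure D4:**
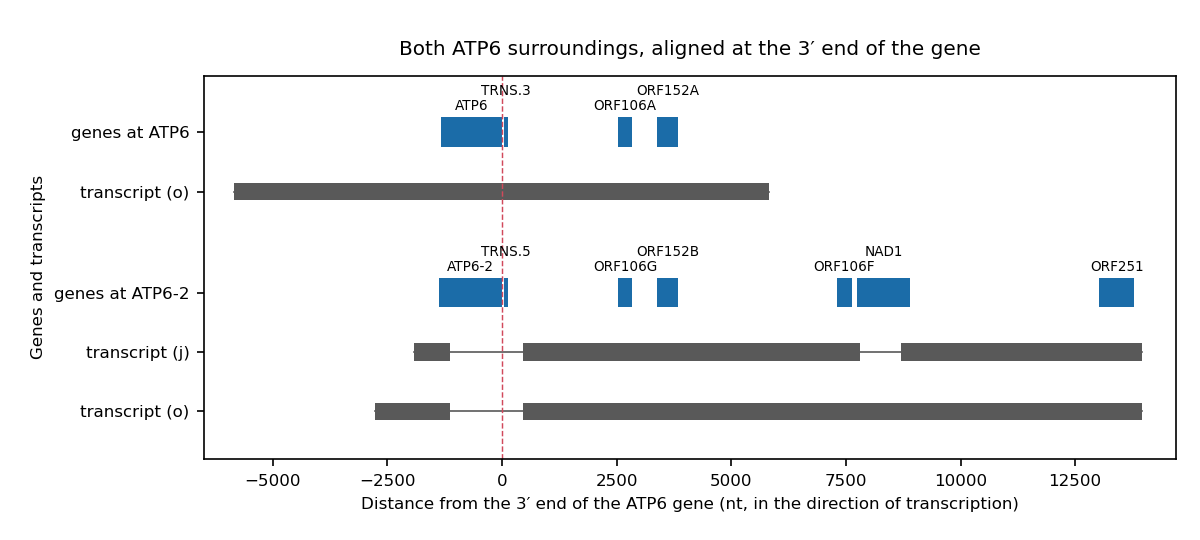
Genes (blue) and assembled transcripts (grey, with introns as thin lines) around ATP6 and ATP6-2, by distance in nt from the 3′ end of the gene, shown by the dashed line, in the direction of transcription. TRNS, ORF106 and ORF152 lie at like distances in both; the upper transcript is 1 exon that ends at 5830 nt, and the lower ones lack most of ATP6-2 and reach 13957 nt.

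The other 5 of the new same-strand transcripts held a single gene. COX1 (ATMG01360, 349830 to 351413) was covered whole by an exon of 5579 nt (347127 to 352705) that began 1292 nt upstream and ended 2703 nt downstream, with 68 nt opposite ORF145C. The methionine tRNA gene TRNM.1 lay in an exon of 1069 nt (71312 to 72380), 141 nt from its 5′ end. The remaining 3 were over open reading frames. ORF107F lay in 4439 nt, ORF107G in 2734 nt of which 222 nt were opposite ORF159, and ORF204 in 2299 nt that reached the last position of the set, 366921.

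The 8 antisense transcripts met 9 genes, mostly at their edge. Only the tRNA genes TRNN and TRNQ, for asparagine and glutamine, lay whole inside one. TRNN (62 nt as annotated) was covered by a minus-strand transcript of 961 nt (105700 to 106660) that lay between ORF199, 146 nt away, and the tyrosine tRNA gene TRNY.2, 136 nt away. TRNQ (67 nt as annotated) was covered by a plus-strand transcript of 3119 nt (252556 to 255674), which ended 1190 nt before CCB203. They are printed because no other gene lay whole inside an antisense transcript of this code. The letters come from the plus strand of chromosome 2 of RefSeq TAIR10.1, where copies of both genes match the RefSeq mitochondrial sequence in 72 of 72 nt, with the anticodon in capitals.
trnN(GTT), chr2:3496440-3496511: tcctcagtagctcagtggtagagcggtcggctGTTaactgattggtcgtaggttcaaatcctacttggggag
trnQ(TTG), chr2:3276440-3276511: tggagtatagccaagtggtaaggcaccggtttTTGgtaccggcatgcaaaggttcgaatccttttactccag

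In the other antisense transcripts the overlap was 38 to 204 nt. The longest (648 to 8387, plus strand, 7740 nt) met 87 nt of ORF153A and ended 460 nt before the 3′ end of RRN26, the gene of the large rRNA, on the other strand. The one over ORF160 (151620 to 154441, 2822 nt, overlap 128 nt) ended 302 nt upstream of RPL2, a ribosomal protein gene on its own strand. The transcripts of 741 nt over ORF102B and of 347 nt over ORF205 had overlaps of 38 and 100 nt. A transcript of 507 nt lay between ORF136A and ORF136B, with 70 and 49 nt opposite to them. The one over ORF204 (365134 to 366289) lay whole opposite the same-strand transcript of that gene, and 204 of its nt were opposite the gene itself.

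Another 5 new transcripts, over ATP6, ORF275, ORF240A, ORF107G and COX1, had their gene on the same strand and met 6 genes on the other, which brings the genes with an opposite transcript to 15, of which ORF204 alone had both. ORF122C, ORF107D, ORF136A and ORF136B each had an assembled transcript with exactly the exons of the annotated gene, and all 4 lie opposite a new transcript. No other annotated mitochondrial gene had such a copy. How these copies came about was not tested.

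**Figure D5:**
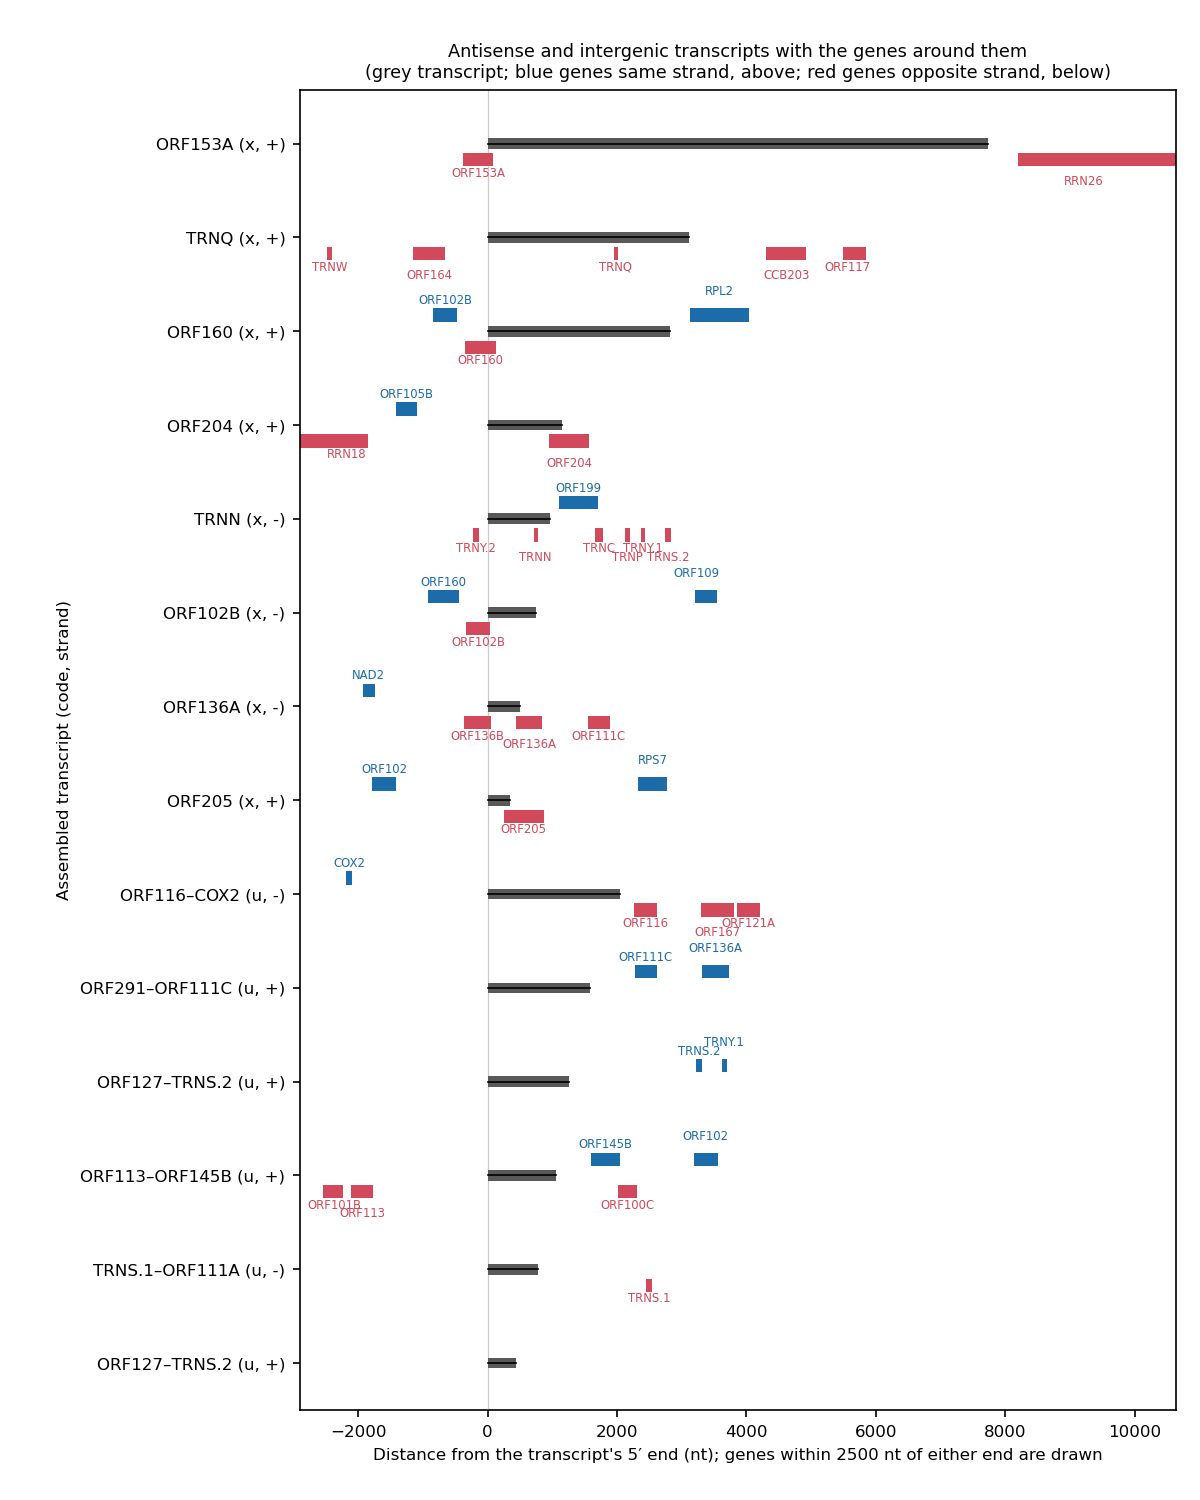
Maps of the 8 antisense (x) and 6 intergenic (u) transcripts by distance in nt from their 5′ end, with annotated exons within 2500 nt of either end in blue (same strand) or red (opposite strand). TRNN and TRNQ lie inside a transcript on the other strand, and the other antisense overlaps are at an end of the transcript or of the gene.

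The 6 intergenic transcripts lay 225 to 5141 nt from the nearest gene, with a median of 1187.5 nt, and a median of 2031 nt from the nearest gene on their own strand. The longest (36358 to 38402, minus strand, 2045 nt) lay 225 nt from ORF116 and 2099 nt downstream of COX2, a subunit of cytochrome c oxidase on the same strand. Next along the genome was one of 773 nt (64110 to 64882, minus strand), 1676 nt from the serine tRNA gene TRNS.1 and 4035 nt from ORF111A.

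The stretch between ORF127 and TRNS.2 held 2 on the plus strand, of 438 nt (98248 to 98685) and 1261 nt (100603 to 101863), with 1917 nt between them. They lay 5141 and 1963 nt upstream of TRNS.2, a serine tRNA gene that heads a run of tRNA genes for tyrosine, proline and cysteine. The last 2, also on the plus strand, lay upstream of open reading frames on their strand. That of 1064 nt (307328 to 308391) ended 540 nt before ORF145B, and that of 1580 nt (321980 to 323559) ended 699 nt before ORF111C. No intergenic transcript lay within 500 nt of a gene on its own strand.

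The nuclear genome of Arabidopsis carries a large copy of mitochondrial DNA on chromosome 2, so mitochondrial reads can match both. The RefSeq mitochondrial sequence aligned to chromosome 2 in blocks of at least 1000 nt from 3250465 to 3509757, where the nuclear positions of the file and of RefSeq are the same (5433 of 5435 chromosome 2 genes overlapped on the same strand). In these 259293 nt the set held 23 new assembled transcripts, of which 10 shared a junction, 8 were other same-strand overlaps, 3 were antisense and 2 intergenic. Another 9 assembled transcripts there had the matching code and are not counted as new. The new transcripts covered 24.6% of the insertion, against 25.1% of Mt. The aligned blocks held 83.1% of the RefSeq mitochondrial sequence. Whether a gene has a copy is judged below from this reference sequence of chromosome 2 alone.

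Of the 60 named mitochondrial genes (all but open reading frames and unnamed genes), 43 had a copy in the insertion over at least 95% of their length at 99% identity or more, and 3 of these had a new transcript on their strand of Mt (6.98%, exact interval 1.46 to 19.1%). They were TRNM.1, TRNS.3 and CCB203. Of the 15 without such a copy, 6 had one (40%, 16.3 to 67.7%), namely ORF25, NAD4L, NAD5B, TRNK.2, the NAD1 entry ATMG01120 and COX1. The 15 include the 3 rRNA genes, from which nothing is read. Among protein genes alone, 1 of 25 with a copy and 5 of 10 without had a new transcript. Among tRNA genes these were 2 of 18 and 1 of 2. The remaining genes, ATP6 and ATP6-2, both had a new transcript and are in neither count, because symbols do not tell the atp6 copies apart. Of the RefSeq atp6 genes, copy 1 is whole in the insertion and copy 2 over 72.5%. The named gene left of atp6 copy 1 in RefSeq is a tyrosine tRNA of 83 nt, as is TRNY.2 left of ATP6. By this order ATP6 would be the gene with a copy and ATP6-2 the one without. The 6 genes lie in 4 places, ORF25, NAD4L and NAD5B in 1 transcript, and are not independent. The named genes with neither a copy nor a new transcript were RRN26, RRN18, RRN5, NAD9, the NAD5 entry ATMG00060, RPL16, CCB206, COX2 and TRNK.1. The unnamed ATMG00090, rps3 by its place, had neither as well, with 5.10% of rps3 in the insertion. It is outside these counts. With the NAD5 transcript of matching code, NAD5 (ATMG00513) and NAD1 (ATMG00516), both with a copy, would be added.

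Most copies had no new transcript on their strand of chromosome 2 either. RefSeq entries are counted here, not places: both trnS(TGA) entries matched best at 3369354 to 3369440, and both trnS(GCT) entries at 3303735 to 3303822. Of 44 RefSeq gene entries with a copy and a given strand, 9 had such a transcript and 35 did not. Among the 25 protein entries of these, 5 had one and 20 did not. The 5 were nad5 part 1, matR, cob, rpl5 and nad2 part 2, none of which had a new transcript on its strand of Mt. The other 4 were tRNA entries, for tyrosine (2 entries), serine and methionine. Of these, the methionine tRNA gene TRNM.1 also had one on Mt. The serine entry was trnS(GGA), whereas TRNS.3 lies where RefSeq has trnS(TGA), which had 0 on chromosome 2. No new transcript lay over the best match of tyrosine copy 1 (3497358 to 3497440), which was counted through another match. An exon of 12562 nt on the minus strand of chromosome 2 (3394694 to 3407255) covered the copies of nad5 part 1 and of matR, the intron maturase, on their strand. An isoform of 12003 nt in 7 exons (3443887 to 3457243) covered the copies of cob and of rpl5, a ribosomal protein gene, and an exon of 6152 nt (3332359 to 3338510) covered 5208 nt of the copy of nad2 part 2. Transcripts of matching code are not in these counts. One of 5 exons covered 2092 nt of the copy of ccmFC on its strand, and one of 8 exons covered those of cob, rpl5 and trnS(GGA). From the file it cannot be told which place gave rise to the reads, and the part of the copy in the counts above was not tested.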

How the data were processed

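The authors deposited 1 table, a merged set of transcript models in which each of 318041 lines gives the start and end position of an exon, with 0 columns of values per library. It was made with CASAVA 1.8, TopHat2 and Cufflinks on TAIR10, per the submitters' processing notes. Other versions, and any settings, were not given in the sources used here. Positions in the deposited table were used as they stand, counted from 1.

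A transcript was taken as assembled where its original name is an assembler's, and as new where its code was not a match. Overlaps of at least 1 nt with annotated exons were counted by strand in Python 3.11.15, after the interval arithmetic was tested on 200 simulated pairs, of which 200 came out right. Intervals of shares are exact Clopper-Pearson 95% intervals (scipy 1.17.1). By rule, genes were named where a new transcript overlapped them on either strand, where they flank one, and, for the respiratory, maturation, ribosomal and rRNA classes, where they have introns. Genes outside this rule, as in the lists of classes and copies, were named after their values were seen. Functional classes follow gene symbols.

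Reference names and sequences were from RefSeq TAIR10.1. Its mitochondrial sequence (367808 nt) is another build: of 22 symbols compared, 0 overlapped in position and 13 had the same length. No mitochondrial position was therefore taken from it. Chromosome 2 copies were found with minimap2 2.31 and BLAST+ 2.17.0, an analysis added after the data were seen, as was the one of the atp6 repeat. The members and the gene lists were chosen with earlier results of these data known. With 1 merged set no test between samples was possible, and alternatives changed the overlap, strand, distance and unit counted.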

Additional observations from a re-analysis of the deposited data

How the results depend on the processing

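Alternatives were tried for the number of new transcripts, the genes joined, the genes opposite an antisense transcript, the number and distance of intergenic transcripts, the introns, the counts by class and the shares of genes in both organelles. The joined pairs, the shares outside annotated exons and the values on chromosome 2 and the atp6 repeat had none. Of 43 alternatives, 35 stayed within 1.5 times the reported count or inside the interval of the share, and 8 moved by more. A change of direction was not scored. Some alternatives could not move, such as either strand in the chloroplast, or the NAD5 transcript in classes without its genes. Counting loci gave 24 in place of 25 new transcripts, and counting exon structures absent from the annotation gave 26. Genes joined to another by a same-strand transcript numbered 20, and 19 where at least 50% or all of the gene had to be covered. Genes opposite an antisense transcript numbered 9, but 15 when any new transcript on the opposite strand counted and 2 when at least 50% of the gene had to be covered. Intergenic transcripts lay a median of 1187.5 nt from a gene, or 2031 nt on their own strand, and 5 of 6 were at least 500 nt from any gene. Counting either strand raised the tRNA genes from 3 to 5, the open reading frames and unnamed genes from 14 to 26, and the share of mitochondrial genes from 17.2 to 26.9%, with 0 in the chloroplast both times. Counting the NAD5 transcript of matching code, an alternative chosen after seeing the data, raised the joined genes to 22, the complex I genes from 3 to 5, and the annotated introns found in assembled transcripts from 1 to 2. The depth is unknown, so a gene without an assembled transcript cannot be read as silent. No paired analysis was possible because the merged set has no value per library.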
